A study of Caenorhabditis elegans with 6 samples.

Results

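Nuclear hormone receptors are transcription factors that couple a zinc-finger DNA-binding domain to a ligand-binding domain, so that lipids, steroids or dietary metabolites can set the output of target genes. *C. elegans* carries a greatly expanded family of them, most of which descend from an HNF4-like ancestor and are known only by number. NHR-49 is one of the best studied of this expanded group and controls fatty acid β-oxidation and desaturation in the intestine. The genes described here are the other *nhr* genes expressed in late L4 animals. They were taken as all rows of the expression table whose name begins with nhr- and that reached at least 1 RPKM (reads scaled to gene length in kilobases and to library size) in at least 3 of the 6 libraries, leaving out *nhr-49* itself, *nhr-13*, *nhr-22*, *nhr-23*, *nhr-25*, *nhr-66*, *nhr-80* and *nhr-105*. Of 283 *nhr* genes in a table of 46739 rows, 191 reached the minimum and 183 remained after these 8 exceptions. Another 92 stayed below the minimum, 9 of them at 0 in every library. The gene just inside the minimum was *nhr-165*, which was at 1.03 RPKM or more in 3 libraries, and the gene just outside was *nhr-147*, which was at 0.966 RPKM or more in 3.

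Whole-worm polyA RNA was sequenced from 3 biological replicates of wild-type animals (strain PMD121, with an intact *nhr-49*) and 3 of *nhr-49(nr2041)* mutants (strain PMD122). All 6 cultures received empty vector RNAi in HT115 bacteria throughout development at 20°C and were collected as late L4 larvae. PMD121 and PMD122 are homozygotes kept from the F2 of a cross between N2 and STE68, the strain that carries *nr2041*, so each genotype is 1 strain, and an effect of *nhr-49* cannot be told apart from any other locus at which these strains differ. *nr2041* removes only part of *nhr-49*, and reads from the remaining exons are still counted.

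*nhr-49* was read at 39.4, 40.8 and 37.8 RPKM in wild-type replicates 1 to 3 and at 26.1, 22.1 and 26.1 RPKM in mutant replicates 1 to 3 (log2 fold change -0.65, SE 0.11, limma adjusted p = 0.0164), so the genotype labels matched the level of the mutated gene. Library totals lay between 24523159 and 30183162 reads. A principal component with 22.4% of the variance set wild-type replicate 2 and mutant replicate 1 against the remaining libraries of their genotypes. The adult cuticle collagen *col-19* was at 43.6 RPKM in wild-type replicate 2 against 244 and 211 RPKM in the other wild-type libraries. The mutant libraries lay between these, at 79.1, 102 and 92.1 RPKM, and the collagens *col-7* and *col-62* were placed likewise. The muscle myosin *unc-54* was at 542 RPKM in mutant replicate 1 against 1136 and 991 RPKM in the other mutant libraries. Among the receptors, 113 of 183 (61.7%) had their highest wild-type value in replicate 2, beside 39.2% of all genes tested, and 125 (68.3%) had their highest mutant value in replicate 1, beside 53.5%. The marker lists for intestine, muscle, pharynx, hypodermis, neurons, sperm, oocytes, adult cuticle and moult held no gene that passed the test between genotypes. Without overlap between genotypes, all 4 muscle markers (median log2 fold change -0.48), the moult gene *mlt-10* and the intestinal *ges-1* were lower. The intestinal *ifb-2* and *pept-1* and the neuronal *unc-31* were higher without overlap. Over all genes tested, 3.78% were lower and 17.6% higher in this way. Whether tissue content and stage matched between genotypes was not tested.

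The first question was which receptors differed between genotypes. Differences were tested with limma on log2(RPKM + 1) over all 13965 genes that reached the minimum, with Benjamini-Hochberg adjustment over all of them and a threshold of 0.05. Of the 183 receptors, 16 were higher in the mutants (8.74%, against 3.32% of all genes tested) and 1 was lower (0.546%, against 0.816%). The 16 were *nhr-77*, *nhr-78*, *nhr-81*, *nhr-82*, *nhr-99*, *nhr-155*, *nhr-165*, *nhr-175*, *nhr-181*, *nhr-257*, *nhr-260*, *nhr-264*, *nhr-265*, *nhr-267*, *nhr-269* and *nhr-270*, and the lower one was *nhr-113*. With quantile normalization the split was 15 higher and 3 lower, where all genes tested gave 2.86% and 1.10%. The absolute log2 fold change was under 0.5 for 140 of the 183, and the median was 0.24, beside 0.10 over all genes tested. Setting the library medians equal moved the median of all genes to -0.02 and that of the receptors to 0.11. The log2 fold change was above 0 for 147 receptors (80.3%, against 67.3% of all genes tested). At an unadjusted p under 0.05, 49 receptors were higher and 5 lower, where all genes gave 10.9% and 2.28%.

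Levels separated the 16 into different kinds. Of the 183 receptors, 151 were at 1 RPKM or more in all 6 libraries and 14 were under 1 RPKM in every wild-type library. None was under 1 RPKM in every mutant library, and 18 crossed the minimum within a genotype. Among the 151 read throughout, 2 were higher (1.32%, against 2.03% of all genes of that class) and 1 was lower (0.662%, against 0.695%). The other 14 higher receptors were precisely those that passed the minimum through the mutants alone. Genes chosen in that way had to differ, and 72.3% of all 224 such genes were called, so their number is a description and not a test. Counted over all *nhr* genes read in at least 1 library, below the minimum or not, 95 were under 1 RPKM in every wild-type library. Of these, 14 (14.7%) were at 1 RPKM or more in every mutant library, where all genes above 0 gave 4.06%. In the reverse direction there were 0 of 72, where all genes above 0 gave 0.460%. The 14 are the same receptors as before, and some are neighbours in the genome. Their share is therefore also a description and not a test. Whole-animal RNA cannot separate more cells expressing a receptor from more transcript per cell.

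**Figure D1:**
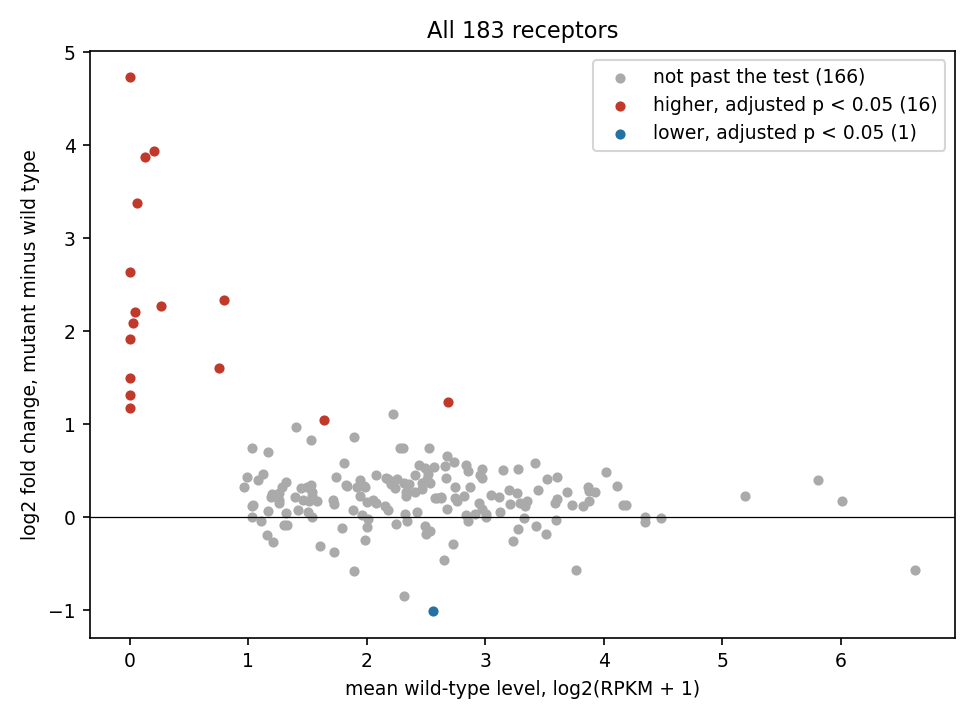
Log2 fold change (mutant minus wild type, on log2(RPKM + 1)) of the 183 receptors against the mean wild-type level on the same log2 scale, with 1 point per receptor, coloured by the limma test. The 14 receptors under 1 RPKM in wild-type animals form a column at the left with changes from 1.17 to 4.73, and the *nhr-113* point lies at -1.01.

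*nhr-82* showed the largest difference of all 183. It had 0 reads in each of the wild-type libraries and stood at 28.9, 25.2 and 22.8 RPKM in mutant replicates 1 to 3, from 2017 reads in all. Its log2 fold change was 4.73 (SE 0.16, limma adjusted p = 6.03e-06). Set against a floor of 3 reads over the wild-type group, the mutant level was at least 727-fold higher. A receptor without any wild-type read thus ranked 5 of 183 by mean RPKM in the mutants, after *nhr-97*, *nhr-68*, *nhr-114* and *nhr-31*. It is encoded on the plus strand of chromosome I, at 12245456 to 12246778 in WBcel235.

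*nhr-265*, on chromosome I from 12251906 to 12253636, read 0.127, 0.159 and 0.176 RPKM in wild-type animals and 22.4, 14 and 14.8 RPKM in the mutants (log2 fold change 3.94, SE 0.21, limma adjusted p = 3.10e-05). *nhr-81*, from 12327982 to 12329494 on the same chromosome, had 4 wild-type reads, all in replicate 1, and 10.9, 9.01 and 9.67 RPKM in the mutants (log2 fold change 3.38). *nhr-155*, on chromosome V from 539460 to 541485, read 0.0291, 0 and 0.258 RPKM against 16.9, 13.3 and 14.9 RPKM (log2 fold change 3.87). In all 3 the lowest mutant library lay far above the highest wild-type library. The ratio of the group means was 111 for *nhr-265*, 236 for *nhr-81* and 157 for *nhr-155*, each resting on 14 wild-type reads or fewer.

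A further 5 receptors had no wild-type read at all. *nhr-269*, on chromosome V from 15368470 to 15369807, reached 4.68, 5.24 and 5.89 RPKM in the mutants, at least 209-fold above the wild-type floor. *nhr-175*, also on chromosome V, reached 3.12, 2.15 and 3.20 RPKM, at least 92.6-fold above it. These were steady but modest levels, close to the median mutant level over the 183 receptors, 5.43 RPKM, or below it. *nhr-77* on chromosome I stood at 2.11, 1.86 and 1.55 RPKM in the mutants, at least 60.6-fold above its floor. *nhr-257* on chromosome II stood at 1.64, 1.42 and 1.40 RPKM, at least 42.9-fold above it. The weakest of the group was *nhr-165* on chromosome I, with 1.39, 1.03 and 1.34 RPKM and 110 reads over the mutant libraries, at least 39.7-fold above the floor. Together with *nhr-82* these make 6 receptors with 0 reads in every wild-type library (3.28%, where all genes tested gave 0.315%). Such genes can pass the minimum only through the mutants, so this share is a description and not a test. Of the 6, *nhr-82*, *nhr-77* and *nhr-165* lie in the same stretch of chromosome I, described below. The fitted log2 fold changes of the 6 depend on the pseudocount and are no bound, whereas the folds above the floor cover counting error only.

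*nhr-264* and *nhr-267* lie close together on chromosome IV, from 9292296 to 9293925 and from 9284893 to 9286405, both on the minus strand. *nhr-264* had 3 wild-type reads against 332 in the mutants, a ratio of 119.7 with an exact 95% counting interval of 40.6 to 583. *nhr-267* had 2 wild-type reads against 296, a ratio of 160.1 with an interval of 43.9 to 1328. Mutant levels were 3.82, 3.18 and 4.39 RPKM for *nhr-264* and 5.04, 3.15 and 2.28 RPKM for *nhr-267*. The mutant libraries spread more widely for *nhr-267* (standard deviation 1.41 RPKM) than for *nhr-264* (0.605 RPKM). For the difference between genotypes the limma adjusted p was 0.00174 for *nhr-267* and 1.41e-04 for *nhr-264*.

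The last 3 of the 14 were weakly but measurably read in wild-type animals, and all lie on chromosome V. *nhr-181* (4095040 to 4100541) read 0.796, 0.847 and 0.556 RPKM in wild-type animals and 8.65, 7.39 and 7.31 RPKM in the mutants, a log2 fold change of 2.34 (SE 0.16). *nhr-260* (1509879 to 1511637) read 0.207, 0.234 and 0.172 RPKM against 5.06, 4.91 and 4.43 RPKM, a log2 fold change of 2.27 (SE 0.14). *nhr-270* (802546 to 804741) read 0.614, 0.721 and 0.710 RPKM against 5.01, 4.20 and 3.28 RPKM, a log2 fold change of 1.60 (SE 0.18). In these the ratio of the group means was 10.6, 23.5 and 6.11, respectively. Summed over the 14 receptors, the wild-type libraries held 1.96 to 1.97 RPKM and the mutant libraries 96.1 to 119 RPKM. Mutant replicate 1 was the highest mutant library for 11 of the 14. Among the protein-coding genes of the expression table that were placed in the annotation, none overlaps any of the 14.

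**Figure D2:**
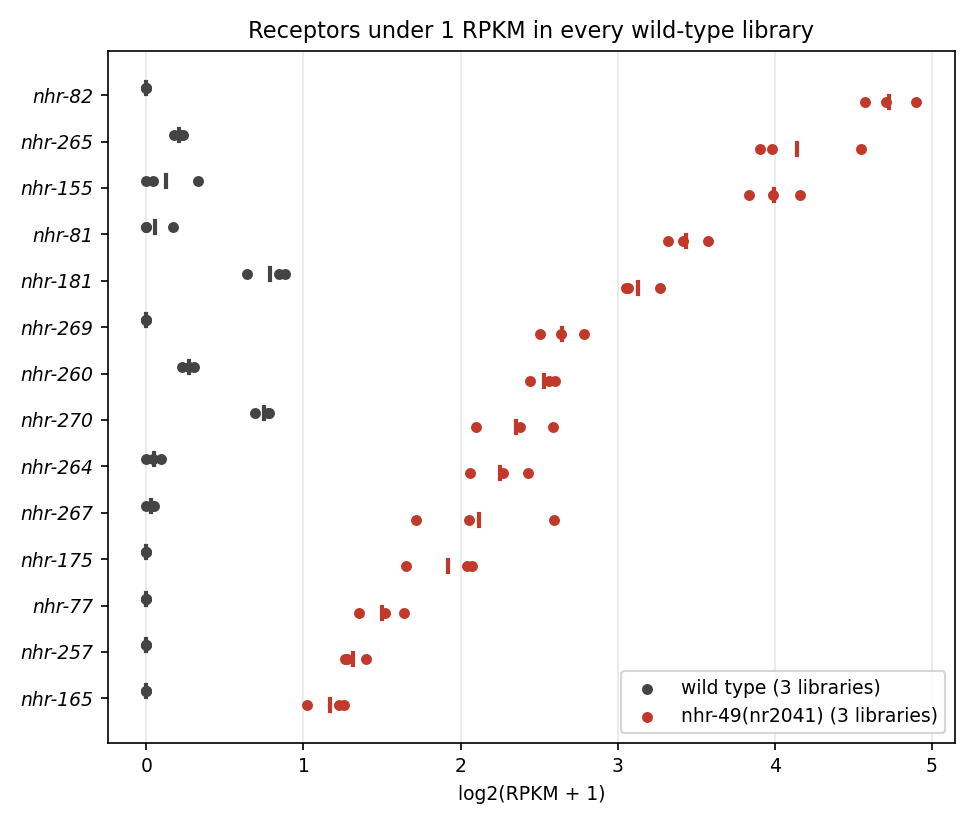
Level of the 14 receptors that were under 1 RPKM in every wild-type library, as log2(RPKM + 1), with 1 point per library and a short bar at the mean of each genotype (n = 3). Every mutant point lies to the right of every wild-type point of the same receptor, from *nhr-82* (28.9, 25.2 and 22.8 RPKM) at the top to *nhr-165* (1.39, 1.03 and 1.34 RPKM) at the bottom.

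The receptors of chromosome I were next compared with the genes around them. *nhr-82*, *nhr-265*, *nhr-81*, *nhr-165* and *nhr-77* lie in that order between 12245456 and 12385731. Of 27 other tested genes in this stretch, 26 were higher in the mutants by limma and 0 were lower, where 2.94% of all tested genes on chromosome I were higher. No wild-type read fell on 12 of the 27, among them *oac-26*, *oac-35*, *oac-43*, *glct-4*, *gly-16* and *gly-17*. The *oac* genes encode membrane acyltransferases and the *gly* and *glct* genes glycosyltransferases. *gmd-2*, which encodes a GDP-mannose dehydratase, was read in both genotypes, at 1.01, 1.10 and 1.50 RPKM in wild-type animals and 39.7, 32.8 and 30.3 RPKM in the mutants. The exception was F56H6.6, at 1.95, 1.15 and 1.78 RPKM against 0.787, 1.17 and 1.23 RPKM. Higher genes continued past both ends of the stretch, as with T15D6.8, which had no wild-type read and stood at 114, 82.4 and 81.4 RPKM in the mutants. Thus these 5 receptors shared their difference with almost every tested neighbour. RPKM alone cannot tell a gene that was not transcribed in PMD121 apart from one whose sequence is absent from that strain or too diverged to be mapped. The folds and floors given for genes at or near 0 wild-type reads are therefore differences in mapped reads. The window was chosen after its values were seen.

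**Figure D3:**
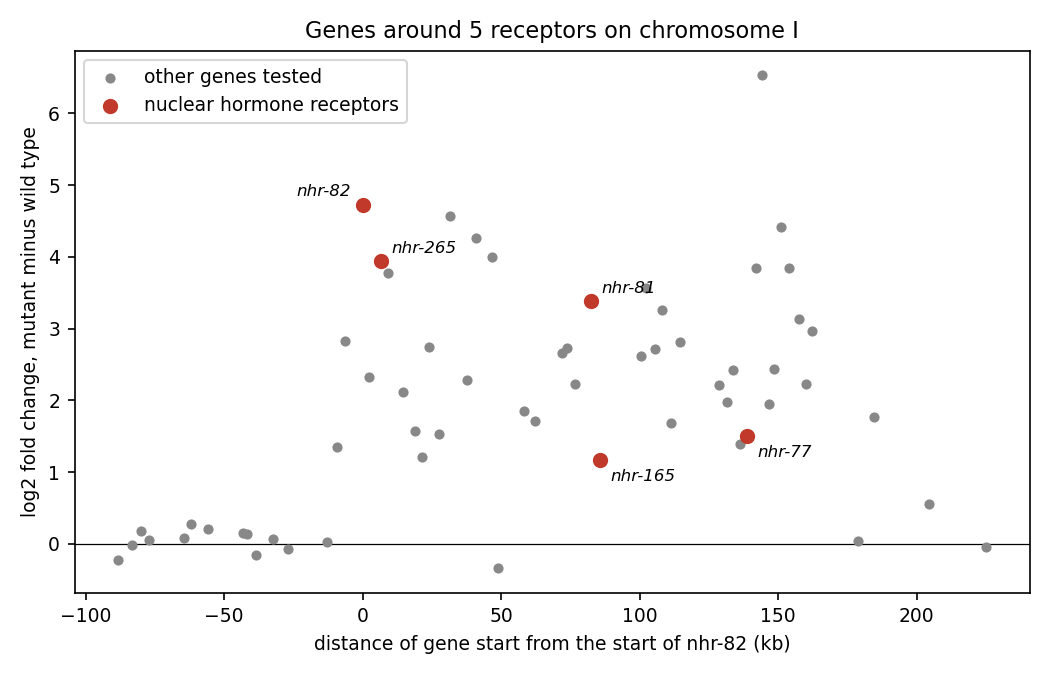
Log2 fold change (mutant minus wild type) of each tested gene against the distance of its start from the start of *nhr-82* in kilobases, with the 5 receptors in red and other genes in grey. The receptors, at 4.73, 3.94, 3.38, 1.17 and 1.50 from left to right, lie inside a block in which nearly all genes are above 0, while the genes farther left than 12.7 kb lie between -0.23 and 0.27.

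Distance to *nhr-49*, which lies on chromosome I from 9869651 to 9874680, did not order these differences. *nhr-69* lies 0.0045 Mb away and had a log2 fold change of 0.34, and *nhr-62*, 0.0248 Mb away, had 0.58. At 1.55 and 1.56 Mb the neighbours *nhr-74* and *nhr-73* had 0.36 and 0.86, while at 1.6 Mb *nhr-113* and *nhr-245* had -1.01 and -0.85. *nhr-73* read 1.53, 4.15 and 2.48 RPKM in wild-type animals and 6.59, 4.74 and 5.17 RPKM in the mutants (limma adjusted p = 0.204, and 0.0350 without wild-type replicate 2). Of 14 alternative fits, 2 called *nhr-73*, and the adjusted p reached 0.532. The 5 higher receptors lay between 2.37 and 2.51 Mb away, and *nhr-85*, at 3.18 Mb, had 0.06. Linkage of this interval to *nr2041* through the cross and an effect of the missing receptor cannot be told apart here.

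Outside chromosome I the surroundings of the higher receptors varied. Within 30 kb of *nhr-257* on chromosome II, 7 of 9 other tested genes were higher and 1 was lower, among them *oac-10*, *oac-11* and 4 genes of the C17A2 cosmid. The same window holds 3 receptors below the minimum. *nhr-72* had 1 wild-type read against 113 mutant reads, *nhr-261* had 0 against 42, and *nhr-166* had 16 against 15. Within 30 kb of *nhr-264*, 7 of 16 tested genes were higher, *nhr-267* and 6 genes of the F49C12 cosmid, and F49C12.7 was lower. The corresponding counts were 6 of 11 around *nhr-269*, including *clec-229*, *clec-230* and *clec-231*, which encode C-type lectins, 3 of 8 around *nhr-155* and 2 of 5 around *nhr-260*. *ech-1.1* near *nhr-269* was lower. By contrast, no tested neighbour was higher around *nhr-175* (0 of 7), *nhr-181* (0 of 2) or *nhr-270* (0 of 3), while *cpt-5* near *nhr-175* and *phat-4* near *nhr-181* were lower. Around *nhr-99* the count was 0 of 13, and around *nhr-78* it was 1 of 13. Over all tested genes, 3.04% on chromosome II, 3.73% on IV and 6.20% on V were higher. A count of 0 in so few genes therefore says little, although *nhr-175*, *nhr-181*, *nhr-270* and *nhr-99* had no higher tested gene beside them. The windows were also chosen after the values were seen.

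Most members of the family sit on chromosome V, which held 110 of the 178 receptors placed in the annotation (61.8%), beside 19.5% of all tested genes. Of those 110, 7 were called higher, and over all tested genes of chromosome V 6.20% were. Chromosome I held 13 receptors with 5 higher and 1 lower, where all its tested genes gave 2.94% and 0.401%. Chromosome IV held 25 with 3 higher (3.73% of all its tested genes), and chromosome II 11 with 1 higher (3.04%). None of the 15 receptors on X or the 4 on III passed the test. Among *nhr* genes below the minimum, 6 had at most 2 wild-type reads and more than 10 mutant reads, and 0 showed the reverse. The same count over all genes below the minimum was not made, so nothing is read from it about the family. By the 1 RPKM rule used earlier, all genes above 0 also leaned to the mutants (4.06% against 0.460%). The 6 were *nhr-72* and *nhr-261*, given above, *nhr-248*, with 0 wild-type reads against 106 in the mutants, and *nhr-2*, *nhr-118* and *nhr-242*, with fewer mutant reads.

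Of the 151 receptors read in all libraries, *nhr-99*, *nhr-78* and *nhr-113* passed the test. *nhr-99* read 5.01, 6.67 and 4.65 RPKM in wild-type animals and 16, 11.2 and 15.3 RPKM in the mutants, without overlap between genotypes (log2 fold change 1.24, SE 0.19, limma adjusted p = 0.0103). It sits on chromosome V from 474778 to 477155, inside a run of 12 receptors between 451451 and 497297. The other 11 of this run had log2 fold changes between -0.08 and 0.52, and none was called. The call on *nhr-99* was lost without wild-type replicate 3 (adjusted p = 0.0565).

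*nhr-78*, on chromosome IV from 4274341 to 4277875, read 1.90, 2.33 and 2.14 RPKM in wild-type animals and 6.20, 6.05 and 4.30 RPKM in the mutants. Its lowest mutant library was above its highest wild-type library (log2 fold change 1.05, SE 0.18, limma adjusted p = 0.0166). It was no longer called without wild-type replicate 1 (adjusted p = 0.0861), wild-type replicate 3 (0.0869) or mutant replicate 2 (0.0909), or under quantile normalization (0.0552).

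*nhr-113* was the only receptor called lower. It read 4.40, 6.52 and 3.71 RPKM in wild-type animals and 1.55, 2.04 and 2.02 RPKM in the mutants (log2 fold change -1.01, SE 0.21, limma adjusted p = 0.0445), and the genotypes did not overlap. The call was lost when any single library was left out, with adjusted p between 0.0568 and 0.138. Its neighbour *nhr-245* starts a few kilobases away on the opposite strand of chromosome I and read 3.51, 5.03 and 3.39 RPKM against 2.05, 1.59 and 1.60 RPKM (log2 fold change -0.85, SE 0.19, limma adjusted p = 0.0528, and 0.0338 with library medians set equal). Of 14 alternative fits, 4 called *nhr-245*, and the adjusted p reached 0.208. *bah-1* and ZK1025.3, both within 30 kb, were also lower in the mutants. The next most negative log2 fold change was that of *nhr-11*, -0.58 (SE 0.24, limma adjusted p = 0.358), from 2.52, 3.59 and 2.02 RPKM to 1.96, 0.853 and 1.65 RPKM.

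Without overlap between genotypes, 67 receptors were higher (36.6%, against 17.6% of all genes tested) and 7 were lower (3.83%, against 3.78%). The 67 include the 14 that passed the minimum through the mutants alone and so could not overlap. Among the 151 read in all libraries, 50 were higher (33.1%) and 5 lower (3.31%). The share over all genes of that class was not counted, so nothing is read from these counts about the family. The 7 lower receptors were *nhr-11*, *nhr-57*, *nhr-113*, *nhr-114*, *nhr-220*, *nhr-234* and *nhr-245*. Without wild-type replicate 2 and mutant replicate 1, the libraries set apart above, limma called 29 receptors higher and 5 lower, where all genes tested gave 6.80% and 2.51%. The 29 contained all 16 called with every library, and the lower ones were *nhr-113*, *nhr-114*, *nhr-156*, *nhr-234* and *nhr-245*. Leaving out only wild-type replicate 2 gave 21 higher and 0 lower, where all genes tested gave 3.62% and 0.924%, the added ones being *nhr-6*, *nhr-34*, *nhr-73*, *nhr-112* and *nhr-228*.

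The 4 most abundant receptors, *nhr-114*, *nhr-68*, *nhr-97* and *nhr-31*, were the same in both genotypes. Only 25 of the 183 had a wild-type mean of 10 RPKM or more, and the median receptor was at 4.02 RPKM, below the 10.8 RPKM of all genes tested. *nhr-114* was the most abundant in wild-type animals. It promotes the methionine and S-adenosylmethionine cycle when vitamin B12 is scarce and protects the germline on such diets. Its values were 101, 102 and 91.3 RPKM in wild-type animals and 57.6, 64.6 and 75.6 RPKM in the mutants. The genotypes did not overlap, yet the difference missed the threshold (log2 fold change -0.57, 95% interval -0.87 to -0.28, limma adjusted p = 0.0551). It passed without mutant replicate 3 (adjusted p = 0.0395), with library medians set equal (0.0290) and in limma voom on recovered reads (0.0343). Only 5 of 15 alternative fits called *nhr-114*, and without wild-type replicate 1 the limma adjusted p was 0.239. *nhr-114* overlaps the gene Y45G5AM.9, whose reads the counting may share.

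*nhr-68* and *nhr-97* followed *nhr-114* in wild-type animals. *nhr-68*, which with *nhr-10* switches on the propionate breakdown shunt at low vitamin B12, read 61.9, 69.2 and 59.2 RPKM against 88.2, 63.7 and 66.3 RPKM (log2 fold change 0.18). *nhr-97* read 47.1, 65.5 and 52.2 RPKM against 92.3, 65.5 and 61.4 RPKM (log2 fold change 0.40). In wild-type animals every *nhr-114* library lay above every *nhr-68* and *nhr-97* library. In the mutants the 3 receptors overlapped, with means of 65.9, 72.8 and 73.1 RPKM, so their order there was within the spread of the libraries. *nhr-31*, which acts in the excretory cell, read 31.9, 36.4 and 38.6 RPKM against 40.1, 42.2 and 43.5 RPKM, and *nhr-41* read 23.7, 18.1 and 22.5 RPKM against 19.9, 21.3 and 22.2 RPKM.

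**Figure D4:**
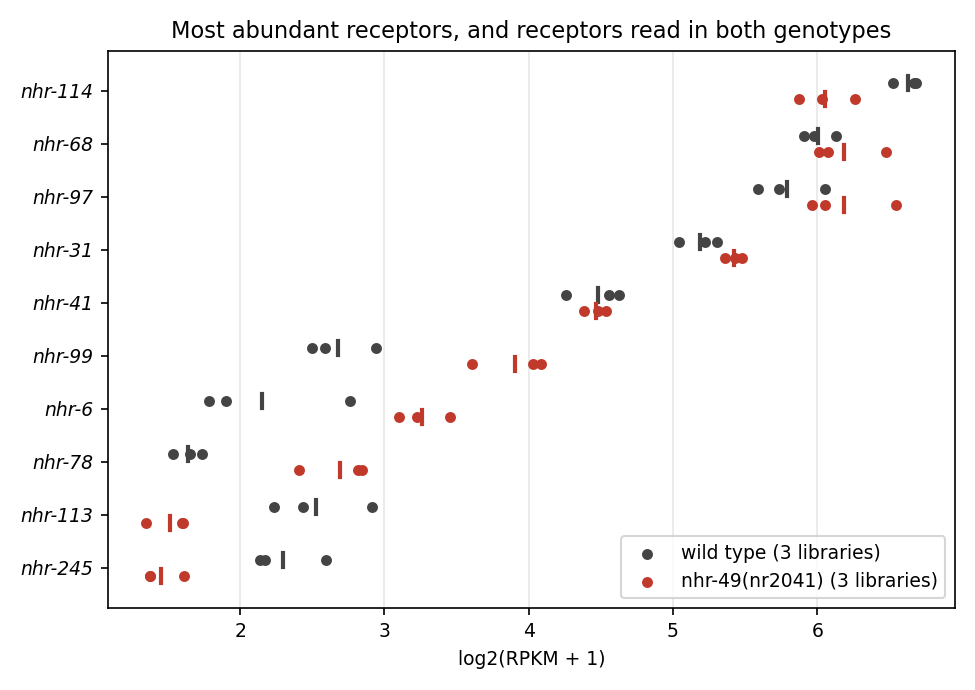
Level of the 5 most abundant receptors and of 5 receptors read in both genotypes, as log2(RPKM + 1), with 1 point per library and a short bar at the mean of each genotype (n = 3). The *nhr-114* points of the mutants (57.6, 64.6 and 75.6 RPKM) lie left of the wild-type points, the *nhr-99* and *nhr-78* points lie right of them, and *nhr-68*, *nhr-97* and *nhr-41* overlap.

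Receptors with a described role were then read as groups, none of whose members passed the test. The conserved receptors, which have clear orthologs in insects and vertebrates, held 7 tested members with a median log2 fold change of 0.13. *nhr-111*, the eighth on the list, was at 0 in every library. *nhr-6*, the ortholog of the NR4A receptors and needed for spermatheca development, differed most. It read 2.45, 5.78 and 2.74 RPKM in wild-type animals and 7.59, 8.35 and 9.96 RPKM in the mutants (log2 fold change 1.11, SE 0.27, limma adjusted p = 0.0848). Wild-type replicate 2 was the high one of its group, and without it the log2 fold change was 1.42 (adjusted p = 0.00419). Without wild-type replicate 1 it was 0.93 (limma adjusted p = 0.278). Of 15 alternative fits, 2 called *nhr-6*, and the adjusted p reached 0.318. *nhr-6* overlaps the gene C48D5.3.

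The other conserved receptors differed less. *nhr-91*, an ortholog of germ cell nuclear factor, had a log2 fold change of 0.20 (95% interval -0.20 to 0.60). *nhr-67*, the tailless ortholog that specifies uterine cells, had 0.13 (-0.31 to 0.57) at a level near 1 RPKM. *nhr-85*, a relative of E75 and Rev-erb that times larval development, had 0.06 (-0.50 to 0.62), and *nhr-41* had -0.01 (-0.32 to 0.30). *nhr-48* and *nhr-8*, the closest relatives of the dafachronic acid receptor DAF-12, had -0.09 (-0.42 to 0.24) and 0.13 (-0.17 to 0.43). Intervals of this width leave room for changes of up to 0.62 on the log2 scale. *daf-12* itself had 0.12 and *sex-1* -0.14, and 0 of 3 tested dafachronic acid synthesis genes passed the test.

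The 13 metabolic and stress receptors had a median log2 fold change of 0.18, and 0 of 13 passed. *nhr-62*, required for long life on a restricted diet, read 2.46, 2.58 and 2.49 RPKM in wild-type animals and 3.16, 5.58 and 4.30 RPKM in the mutants (log2 fold change 0.58, 95% interval 0.11 to 1.05, limma adjusted p = 0.248). All mutant libraries were higher, but they spread widely. *nhr-76*, which acts in the intestine in serotonin-driven fat loss, read 5.63, 2.75 and 5.48 RPKM against 5.04, 7.91 and 7.94 RPKM, so the genotypes overlapped (log2 fold change 0.53, limma adjusted p = 0.486). *nhr-69* and *nhr-64*, relatives of HNF4 with roles in metabolism, had log2 fold changes of 0.34 (-0.01 to 0.69) and 0.12 (-0.27 to 0.52). *nhr-14* and *nhr-45* had 0.33 (0.01 to 0.65) and 0.27 (-0.05 to 0.59), and *nhr-31* had 0.23 (-0.03 to 0.50).

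**Figure D5:**
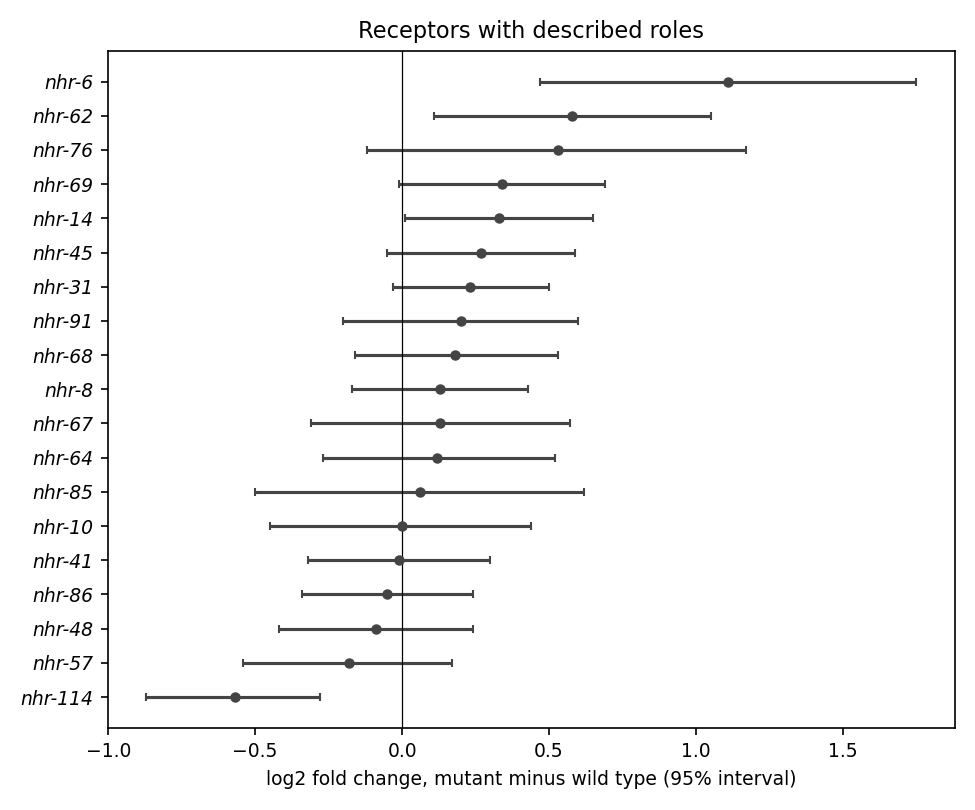
Log2 fold change (mutant minus wild type, on log2(RPKM + 1)) of the receptors with described roles, with 95% intervals from limma over 6 libraries. The *nhr-114* interval (-0.87 to -0.28) lies below 0 and those of *nhr-6* (0.47 to 1.75), *nhr-62* (0.11 to 1.05) and *nhr-14* (0.01 to 0.65) above it, while none passed after adjustment over all genes.

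Genes known to act with some of these receptors were read beside them. For the vitamin B12 pair, *nhr-10* read 18.5, 22.3 and 17.0 RPKM against 25.2, 17.0 and 16.2 RPKM, a log2 fold change of -0.00 (95% interval -0.45 to 0.44). The propionate shunt genes that *nhr-10* and *nhr-68* switch on gave 0 of 5 past the test, with a median of 0.09. Their leading gene *acdh-1*, an acyl-CoA dehydrogenase, read 1831, 1991 and 1507 RPKM against 2469, 2033 and 1872 RPKM. The methionine and S-adenosylmethionine cycle, in which *nhr-114* acts, gave 0 of 8, with a median of -0.01. The S-adenosylhomocysteine hydrolase gene *ahcy-1* had -0.34 (95% interval -0.59 to -0.09, limma adjusted p = 0.186).

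*nhr-86* and *nhr-57* mark responses to pathogens and to low oxygen. *nhr-86*, an HNF4 relative that senses a phenazine of *Pseudomonas* and switches on anti-pathogen genes, read 19.4, 17.9 and 20.5 RPKM against 16.4, 19.8 and 19.8 RPKM (log2 fold change -0.05, 95% interval -0.34 to 0.24). All 3 infection response genes listed under it were higher in the mutants. *irg-4*, *irg-5* and *irg-6* had log2 fold changes of 2.17, 2.98 and 4.45 (limma adjusted p = 3.12e-04, 3.03e-05 and 5.82e-06). *nhr-57*, a target of the hypoxia factor HIF-1, read 4.63, 5.0 and 4.33 RPKM against 4.0, 4.33 and 3.63 RPKM (log2 fold change -0.18, 95% interval -0.54 to 0.17). Of 7 hypoxia pathway genes, *cysl-2*, a cysteine synthase-like gene, was lower, from 56.1, 88.6 and 71.5 RPKM to 41.2, 37.1 and 34.5 RPKM (log2 fold change -0.90, limma adjusted p = 0.0293). The co-regulators *din-1*, *gei-8*, *cbp-1* and *mdt-15*, which dock on nuclear receptors, had log2 fold changes of 0.05, 0.01, 0.01 and 0.04.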

How the data were processed

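Paired 150 bp reads from 6 libraries were summarised by the authors as RPKM per gene, the deposited unit, in which reads are divided by gene length and library total. CLC Genomics Workbench 9.5 served for the authors' comparison, and the submitters' processing notes name the build WBcel235. The mapper was not given in the sources used here, nor was the annotation release. The deposited mean RPKM of each genotype was not used.

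Genes reaching 1 RPKM in 3 or more of 6 libraries were fitted with limma 3.58.1 (lmFit, eBayes with trend and robust, statmod 1.5.0, R 4.3.3) on log2(RPKM + 1) with genotype as the only term. This understates changes of low genes. p-values measure the spread between biological replicates, and with 3 against 3 the smallest p of an exact permutation test is 0.10. The limma step was tested on simulated data.

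Whole reads were recovered from RPKM, within 0.01 reads, for 100% of the 19579 genes above 0, at 97.01% to 99.66% of the implied totals. On these reads limma voom called 417 genes higher and 142 lower. Ratios and floors of 3 reads cover counting error only. Coordinates come from Ensembl release 115, on WBcel235, which placed 178 of 183 receptors. Nothing says whether strand was counted. Protein features of the receptors were planned but not analysed here.

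The members, role lists and alternatives were chosen with earlier results of these data known. Named receptors are those called, those of the role lists, the 5 most abundant, the 3 largest and 3 smallest changes, those at the expression minimum and those within 2 Mb of *nhr-49*. Others, and the neighbouring genes, were chosen after their values were seen. Alternatives were quantile normalization, equal library medians, no filter, a minimum of 5 RPKM, pseudocounts of 0.1 and 0.5, the replicate number as a block, limma voom, leaving out each library, leaving out wild-type replicate 2 with mutant replicate 1, and an unadjusted p. Python 3.11.15 was used with scipy 1.17.1, numpy 2.4.6, pandas 2.3.3 and, for plots, matplotlib 3.10.9.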

Additional observations from a re-analysis of the deposited data

How the results depend on the processing

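The 14 receptors under 1 RPKM in wild-type animals were called under each alternative in which they were tested. They passed the minimum through the mutants alone, so this describes the same values and is no independent support. At a minimum of 5 RPKM, 9 of the 14 were not tested, and 6 of 90 receptors were higher and 0 lower. All 10111 genes tested at that minimum gave 320 higher and 93 lower. The number of receptors called lower was 3 with quantile normalization, equal library medians or limma voom, 0 with no filter or the replicate block, and 0 to 1 when single libraries were left out, whereas the number called higher was 14 to 21 in the latter. Over all 13965 genes tested, lower calls numbered 154 with quantile normalization, 146 with equal medians, 142 with voom and 64 with the block. With no filter, 104 of 19579 genes were lower. Leaving out single libraries gave 63 to 138 lower and 319 to 506 higher over all genes tested. Without wild-type replicate 2 and mutant replicate 1 together the counts were 29 higher and 5 lower, where all genes tested gave 6.80% and 2.51%. With an unadjusted p they were 49 higher and 5 lower, where all genes gave 10.9% and 2.28%. The median log2 fold change of the receptors was 0.07 with quantile normalization and 0.11 with equal medians. Why these counts moved was not tested.

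The deviations of same-numbered libraries from their group means correlated at -0.33, -0.159 and 0.342. With 3 libraries a genotype, and wild-type replicate 2 and mutant replicate 1 set apart, these values cannot show whether replicates were paired. With the replicate number as a block, 14 receptors were higher and 0 lower, where all 13965 genes tested gave 332 and 64. In that fit *nhr-78*, *nhr-99* and *nhr-113* lost their calls.

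Log2 fold changes near 0 changed sign in some alternatives. *nhr-64* was at -0.01 (quantile) and -0.00 (equal medians). *nhr-67* was at -0.14 (quantile) and -0.09 (without both libraries), *nhr-85* at -0.08 (quantile), -0.07 (equal medians) and -0.05 (voom), and *nhr-48* at 0.02 (without both libraries). Leaving out single libraries moved *nhr-10* from -0.19 to 0.11, *nhr-41* from -0.12 to 0.06, *nhr-67* from -0.01 to 0.24, *nhr-85* from -0.11 to 0.29, *nhr-86* from -0.10 to 0.04 and *nhr-48* from -0.14 to 0.02. Depth limits the low receptors, as 3 reads over the wild-type group correspond to 0.0254 to 0.0350 RPKM for those at 0.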
